A study of Mus musculus with 6 samples.

Results

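Cholesterol synthesis and sterol sensing were followed in mouse epididymal white adipose tissue through 29 genes, chosen by name for their place in the pathway. These 29 were chosen with earlier results of these data known. They comprise 8 enzymes of the mevalonate pathway, 11 enzymes that build squalene and the sterol rings, 4 genes of the sterol sensor, and 6 genes of sterol transport, efflux and esterification. All 29 had a row among 54356 genes and all 29 were among the 17852 genes with enough counts to be tested. The libraries are poly(A) RNA of whole epididymal fat from 6 male wild type C57BL/6N mice aged 20 weeks. The cold group is 3 mice (cold 7, cold 12 and cold 16) held singly at 4 °C for 24 h, and the control group, labelled ctrl, is 3 mice (ctrl 5, ctrl 6 and ctrl 10). Housing outside the cold is stated at 22 to 24 °C. The treatment text is the same for all 6 mice, so how ctrl mice were caged cannot be read from it. Each number is a mouse identifier, so p-values measure the spread between mice.

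Cells make cholesterol from acetyl-CoA through mevalonate, isoprenoid diphosphates, squalene and lanosterol. When sterol in the endoplasmic reticulum is low, SCAP carries the transcription factor SREBP2 (gene Srebf2) to the Golgi, where it is cleaved and then raises the genes of synthesis, and INSIG proteins hold SCAP back when sterol is high. Fat cells hold a large pool of free cholesterol in membranes and at the lipid droplet, and much of it comes from lipoproteins. Insig1 is itself a target of SREBP, and Abca1 and Abcg1 are targets of the oxysterol receptor LXR.

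Promoter sequence was read for the SREBP motif, the CCAAT box and the E-box. RefSeq promoters (GRCm38.p6) were at hand for 23 of the 29 genes, and the 250 bases before each start were searched on both strands. The SREBP motif TCACNCCAC was in 1 of the 23 genes, Hmgcs1, and in 1.22% of all 27025 genes with a promoter. CCAAT, the box bound by NF-Y, was in 20 of the 23 genes (87.0%) and in 37.5% of all genes. The E-box CACGTG was in 6 of the 23 (26.1%) and in 6.86% of all genes. No match says only that these letters are not in this window. The stretches below lie just before the annotated first exons of Insig1 and Abca1, the members with the smallest p-values, and of Hmgcs1, with matches to TCACNCCAC, CCAAT and CACGTG on either strand in capitals.
Insig1, chr5:28071213-28071362, plus strand: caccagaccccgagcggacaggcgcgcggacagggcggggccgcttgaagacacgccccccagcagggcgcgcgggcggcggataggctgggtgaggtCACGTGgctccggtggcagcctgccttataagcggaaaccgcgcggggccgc
Abca1, chr4:53159896-53160045, minus strand: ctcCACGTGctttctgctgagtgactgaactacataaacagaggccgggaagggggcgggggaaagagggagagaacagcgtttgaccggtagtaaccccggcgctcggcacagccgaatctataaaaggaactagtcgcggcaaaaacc
Hmgcs1, chr13:119690201-119690350, plus strand: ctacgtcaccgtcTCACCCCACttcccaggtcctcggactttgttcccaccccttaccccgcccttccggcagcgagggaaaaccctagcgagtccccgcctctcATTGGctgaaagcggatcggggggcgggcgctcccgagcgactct

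Libraries held 19735167 to 28608052 estimated counts. The adipocyte markers Adipoq, Plin1, Cidec and Fabp4 were abundant in all 6, and adipocyte markers summed to 32794 to 33621 CPM (counts scaled to library size with TMM factors) in the cold and 27929 to 31953 CPM in ctrl, with 1 of 10 (Lep) past the threshold. The gap between these sums lay in Fabp4, since the other 9 summed to 17227 to 18802 CPM in the cold and 17235 to 19383 CPM in ctrl, with overlap. Of the 10 markers 7 had values below 0 and 3 above. Plin1, Plin4 and Adrb3 were lower in every cold library without passing. Fabp4, Lep and Pnpla2 were higher in every cold library, with Lep at 0.61 and Pnpla2 at 0.46 on the log2 scale (adjusted p = 0.0439 and 0.0619 by edgeR). Of all genes tested, 2.89% passed (edgeR, adjusted p under 0.05) and in 23.8% the groups did not overlap. Markers of other tissue also moved with the groups. The 11 duct epithelial markers summed to 184 to 299 CPM in the cold and 19.2 to 66.2 CPM in ctrl, with 5 of 11 past the threshold. Of 12 motile cilium markers 10 were tested and 3 passed, and their sum was 64.3 to 196 CPM in the cold and 6.47 to 30.1 CPM in ctrl. Their part in the results below was not tested. In bulk tissue, fewer cells of a type and less RNA per cell cannot be told apart.

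None of the 29 genes passed the test between cold and ctrl, and their values lay on both sides of 0. Summed TPM (level per transcript length) of the 29 was 1096, 1049.5 and 1063 in the cold, against 1106, 1121 and 1153 in ctrl, without overlap, and summed CPM was 2025, 1924 and 2075 in the cold, against 1977, 2062 and 2126 in ctrl, with overlap. Of all genes tested, 2.89% were called (415 higher and 101 lower in the cold, edgeR quasi-likelihood test, Benjamini-Hochberg adjusted p under 0.05), against 0 of the 29. At an unadjusted p under 0.05 there were 4 of 29 (13.8%), against 17.6% of all genes. The median log2 fold change of the 29 genes was 0.01, with 15 above and 14 below 0, and the median over all genes was -0.01. The median size of the change, whatever its sign, was 0.13 for the 29 and 0.16 for all genes tested. DESeq2 called 2 of the 29, Insig1 and Abca1, both lower, against 6.51% of genes with an adjusted p under it. edgeR without a low-count filter called 1, Insig1, against 2.65%. With RLE size factors it called 0 against 2.95%, and with a transcript length offset 0 against 2.29%. The count over all genes rested on single libraries, being 0 without ctrl 6, ctrl 10 or cold 12, 3 without cold 16 and 1090 without cold 7, and none of the 29 was called in any of these fits.

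**Figure D1:**
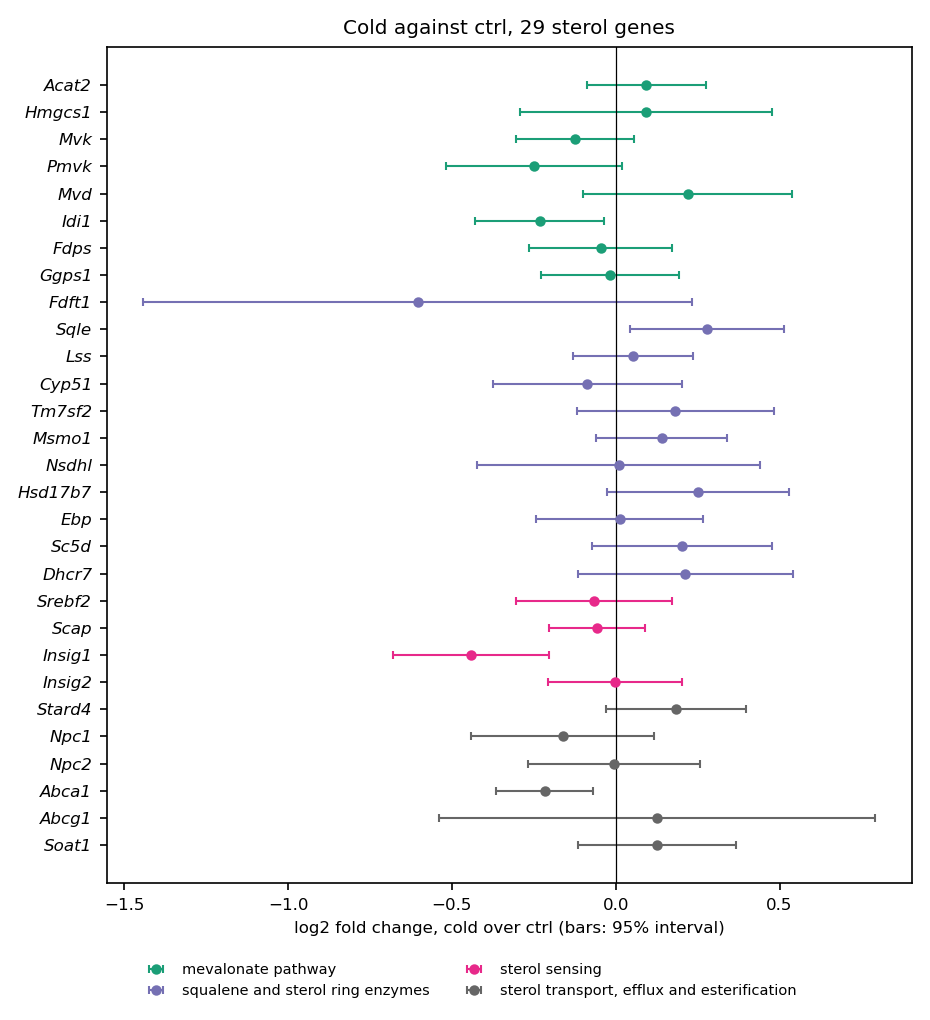
Log2 fold change of each of the 29 genes, cold over ctrl, with bars for the 95% interval from the edgeR fit and colours for the role in the pathway. Most values lie near 0, Insig1 at -0.44, Abca1 at -0.22 and Idi1 at -0.23 have intervals below 0, Sqle at 0.28 has one above 0, and Fdft1 has the widest interval.

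Intervals were narrow for most of the 29 genes. The 95% interval of the log2 fold change lay within ±0.5 for 21 of 29 genes and within ±1 for 28, Fdft1 being the exception. Standard errors ran from 0.06 for Scap to 0.34 for Fdft1. Cold and ctrl did not overlap in 8 of the 29 genes (27.6%), 4 higher and 4 lower, against 23.8% of all genes tested. The 4 higher were Mvd, Sqle, Hsd17b7 and Stard4, and the 4 lower were Mvk, Idi1, Insig1 and Abca1. An exact permutation test of 3 against 3 mice cannot go below p = 0.10, so single genes rest on the model across all genes.

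**Figure D2:**
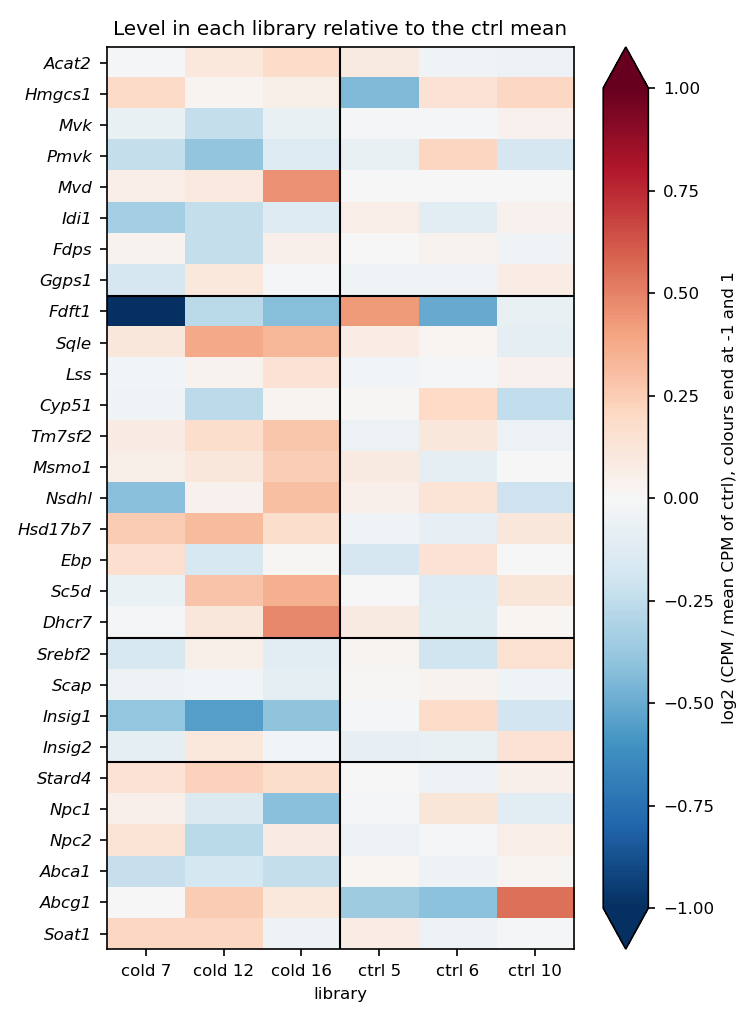
CPM of each gene in each library relative to the mean of the 3 ctrl libraries, on a log2 scale, with rows in pathway order and black lines between roles. Insig1 and Abca1 are below the ctrl mean in all 3 cold libraries, and Fdft1, Abcg1 and Nsdhl, with the largest standard errors of the 29, vary widely within a group.

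Levels per transcript length, in TPM, differed widely among the 29 genes. Npc2, which binds cholesterol inside lysosomes, was the most abundant at 254 ± 36.0 TPM in the cold and 262 ± 8.40 TPM in ctrl (SD, n = 3 each). Hmgcs1, the HMG-CoA synthase of the mevalonate pathway, followed at 111 ± 11.7 TPM in the cold and 108 ± 22.3 TPM in ctrl. Next in mean level over all libraries were Insig1, the desaturase Sc5d, the thiolase Acat2 and Insig2, at 81.1, 78.1, 57.4 and 56.4 TPM. Insig1 was below Sc5d in the cold and above it in ctrl by mean level, and the spreads of Acat2 and Insig2 overlapped, so the order within each pair is not resolved. The ketosteroid reductase Hsd17b7 was the lowest, at 3.68 ± 0.29 TPM in the cold and 3.14 ± 0.25 TPM in ctrl, just under the esterifying enzyme Soat1 and the sterol carrier Stard4. Summed over the 19 synthesis enzymes the level was 561, 579 and 580 TPM in cold 7, cold 12 and cold 16, against 575, 591 and 594 TPM in ctrl 5, ctrl 6 and ctrl 10. These sums overlap between the groups.

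**Figure D3:**
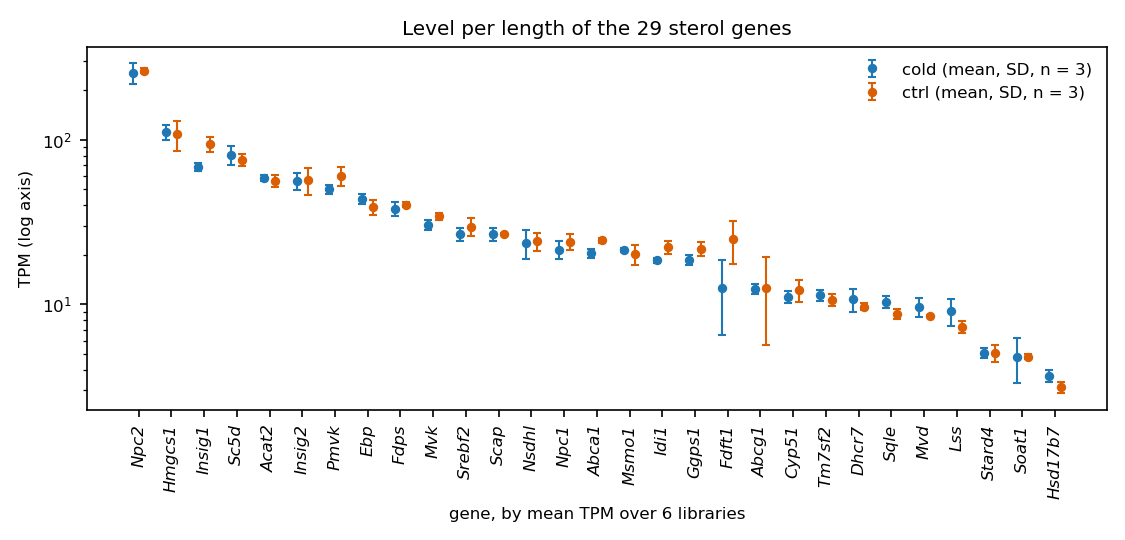
Level per length (TPM, log axis) of the 29 genes in order of mean level, cold left of ctrl, as mean and SD of 3 libraries each. Levels run from about 3 TPM for Hsd17b7 to above 250 TPM for Npc2, and cold and ctrl means lie close together for most genes.

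The 8 enzymes of the mevalonate pathway had 3 values above and 5 below 0, between -0.25 and 0.22 on the log2 scale. Idi1, which interconverts the isoprenoid building blocks (chromosome 13, 8885501 to 8892451, GRCm38), had 31.7, 34.1 and 36.6 CPM in the cold, against 41.9, 37.2 and 41.2 CPM in ctrl. Every cold value lay below every ctrl value, and the log2 fold change was -0.23 (SE 0.09, adjusted p = 0.202 by edgeR). Pmvk, the phosphomevalonate kinase, had 39.5, 35.4 and 42.5 CPM in the cold, against 44.1, 54.1 and 41.3 CPM in ctrl, with overlap between the groups (-0.25, SE 0.12, adjusted p = 0.329). The mevalonate kinase gene Mvk stood at -0.12 and the decarboxylase gene Mvd at 0.22. Mvd was at 9.66 to 9.76 CPM in all 3 ctrl libraries and at 10.2 to 13.3 CPM in the cold. Hmgcs1 had 248, 221 and 226 CPM in the cold, against 161, 241 and 251 CPM in ctrl. Its low value in ctrl 5 set the sign of its fold change, which was 0.09 with all libraries and -0.08 without ctrl 5. The prenyl diphosphate synthases Fdps and Ggps1 stood at -0.05 and -0.02.

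Of the 11 enzymes from squalene onward, 9 had values above 0 and 2 below, with a median of 0.14, and none passed. Sqle, the squalene epoxidase and a rate-limiting step of the late pathway (chromosome 15, 59315077 to 59331192), had 18.3, 21.9 and 21.3 CPM in the cold, against 17.8, 17.1 and 15.8 CPM in ctrl. The groups did not overlap, but cold 7 stood only just above ctrl 5, and the log2 fold change was 0.28 (SE 0.10, adjusted p = 0.196 by edgeR). Hsd17b7 had 10.9, 11.4 and 10.3 CPM in the cold, against 8.88, 8.58 and 9.86 CPM in ctrl (0.25, adjusted p = 0.341). Sc5d, which places a double bond in the sterol ring, had 126, 161 and 169 CPM in the cold, against 132, 121 and 144 CPM in ctrl. Cold 7 lay within the ctrl range, so the groups overlapped (0.20, adjusted p = 0.455). Dhcr7, the reductase of the last step, stood at 0.21, the sterol reductase Tm7sf2 at 0.18 and the methylsterol oxidase Msmo1 at 0.14. The lanosterol synthase Lss stood at 0.05, the demethylase Cyp51 at -0.09, and Ebp and Nsdhl each at 0.01. Over all alternatives run, Lss ranged from 0.0025 to 0.35, Ebp from -0.14 to 0.20 and Nsdhl from -0.17 to 0.21. Exons of Tm7sf2 overlap the neighbour Vps51 on the same strand over 532 bases, so its reads may be shared.

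Among the synthesis enzymes cold 16 was often the highest and cold 7 often the lowest cold library, but no single order held in all. Cold 16 was the highest cold library in 13 of the 19 enzymes and cold 7 the lowest in 12. Of the 8 mevalonate enzymes, cold 7 was lowest in 4 and cold 12 in 4. Summed TPM of these 8 was 348, 327 and 331 in cold 7, cold 12 and cold 16. How often such an order occurs over all genes was not counted. In Nsdhl, a decarboxylase of the sterol ring, cold 7, cold 12 and cold 16 had 24.1, 33.2 and 39.6 CPM, against 33.2, 35.4 and 27.8 CPM in ctrl. Endothelial markers were lowest in cold 7 and highest in cold 16, summing to 1387, 1500 and 1637 CPM in cold 7, cold 12 and cold 16. Duct epithelial markers, at 184, 299 and 267 CPM, and motile cilium markers, at 64.3, 196 and 162 CPM, were also lowest in cold 7. Stromal progenitor markers were highest there, at 4443, 2623 and 2597 CPM. Macrophage markers were highest in cold 7 and lowest in cold 16, summing to 1572, 1146 and 891 CPM in cold 7, cold 12 and cold 16. In ctrl 5, ctrl 6 and ctrl 10 they summed to 1376, 1216 and 1208 CPM. None of the 13 macrophage markers passed. The part of all these markers in the enzyme levels of single libraries was not tested.

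Fdft1, the squalene synthase at the branch into sterols (chromosome 14, 63145150 to 63179578), had the most scattered values. It had 8.93, 18.7 and 16.8 CPM in the cold, against 30.3, 15.9 and 21.4 CPM in ctrl. The log2 fold change stood at -0.61 by edgeR (SE 0.34, adjusted p = 0.455). The groups overlapped, with cold 7 far below and ctrl 5 far above the rest, and the value was -0.06 with both left out. With an offset for transcript length it was -0.96 (adjusted p = 0.262). Of its transcripts, the retained intron form Fdft1-203 had 0, 8.51 and 4.43 TPM in the cold, against 18.1, 11.4 and 9.96 TPM in ctrl. The coding form Fdft1-201 had 0, 5.85 and 5.19 TPM in the cold, against 8.91, 3.34 and 7.28 TPM in ctrl. Both were listed at 0 in cold 7, where Fdft1-202, a form marked for nonsense-mediated decay, had 3.91 TPM, 58.0% of the gene's level. Exons of Fdft1 overlap those of Ctsb, a cathepsin gene on the opposite strand, over 774 bases (18.3% of its exon bases). Ctsb stood at 1603 to 1774 CPM in the cold and 1705 to 1808 CPM in ctrl. The kit marks strand, but use of strand in counting was not stated, so reads of these genes may be mixed.

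**Figure D4:**
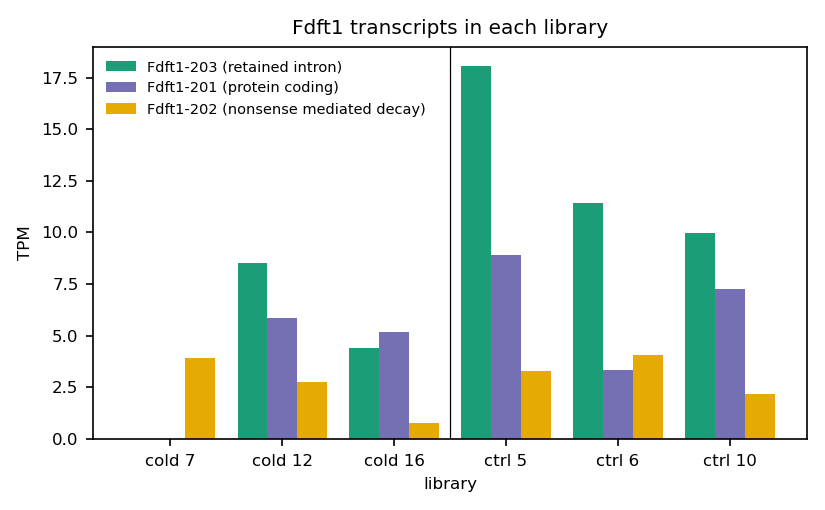
TPM of the 3 most abundant Fdft1 transcripts in each library, cold left and ctrl right of the line. Fdft1-203 and Fdft1-201 are at 0 in cold 7, and Fdft1-203 is higher in each ctrl library than in any cold library.

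Insig1, the sterol-regulated anchor of SCAP in the endoplasmic reticulum, was the member with the smallest p. Insig1 (chromosome 5, 28071363 to 28078662) had 122, 109 and 120 CPM in the cold, against 158, 180 and 139 CPM in ctrl. All 3 cold libraries lay below all ctrl libraries. Its mean was 117 ± 7.22 CPM in the cold and 159 ± 20.8 CPM in ctrl (SD, n = 3 each). The log2 fold change of -0.44 (SE 0.10, 95% interval -0.68 to -0.21) missed the threshold at adjusted p = 0.0632 by edgeR. It passed by DESeq2 (adjusted p = 0.00499) and without the low-count filter (0.00873), and over all alternatives the adjusted p ran from 0.00499 to 0.236. The promoter of Insig1 printed above holds the E-box, and its whole 250 bases also hold CCAAT.

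The other sensor genes stayed close to 0. Insig2, the form of INSIG not raised by SREBP in the same way, had 68.1, 78.0 and 70.9 CPM in the cold, against 68.5, 68.7 and 80.1 CPM in ctrl. Its groups overlapped throughout, and its log2 fold change was -0.0015 (95% interval -0.21 to 0.20). Srebf2 had 70.7, 82.6 and 73.6 CPM in the cold, against 80.6, 69.0 and 88.0 CPM in ctrl (-0.07). Scap, the escort of SREBP, had 70.8, 72.2 and 68.7 CPM in the cold, against 74.0, 75.2 and 71.2 CPM in ctrl (-0.06, 95% interval -0.21 to 0.09). Summed TPM of the 4 sensor genes was 178, 186 and 169 in the cold, against 202, 208 and 212 in ctrl. These sums did not overlap, most of the gap being Insig1 at 68.0 ± 3.89 TPM in the cold and 94.2 ± 10.0 TPM in ctrl (SD, n = 3 each).

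Among the genes of transport and efflux, Abca1 stood apart by its small spread. Abca1, which exports cholesterol to apolipoproteins (chromosome 4, 53030787 to 53159895), had 146, 151 and 145 CPM in the cold, against 173, 166 and 175 CPM in ctrl. Every cold library was lower than every ctrl library. The log2 fold change was -0.22 (SE 0.07, 95% interval -0.37 to -0.07), with adjusted p = 0.119 by edgeR and 0.0437 by DESeq2. Its adjusted p over all alternatives ran from 0.0437 to 0.392. Abcg1, the partner exporter to lipoprotein particles, had 43.9, 52.7 and 47.4 CPM in the cold, against 34.4, 33.2 and 64.6 CPM in ctrl. Ctrl 10 was above and the other ctrl libraries below every cold library. Its log2 fold change of 0.13 (SE 0.27) became 0.51 without ctrl 10 (adjusted p = 0.113).

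The remaining transport genes did not pass either. Npc1, the lysosomal membrane partner of Npc2, had 56.3, 49.2 and 40.7 CPM in the cold, against 53.6, 59.2 and 50.6 CPM in ctrl (-0.16, adjusted p = 0.569 by edgeR). Npc2 had 585, 442 and 565 CPM in the cold, against 512, 527 and 559 CPM in ctrl, with overlap and a log2 fold change of -0.01. Stard4, a soluble sterol carrier raised by SREBP2, had 15.4, 16.4 and 15.8 CPM in the cold, against 14.0, 13.5 and 14.5 CPM in ctrl (0.18, adjusted p = 0.368). It did not overlap between groups, but with an offset for transcript length its value was 0.04. Soat1, which esterifies cholesterol for storage, stood at 0.13 and at 0.01 with that offset.

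**Figure D5:**
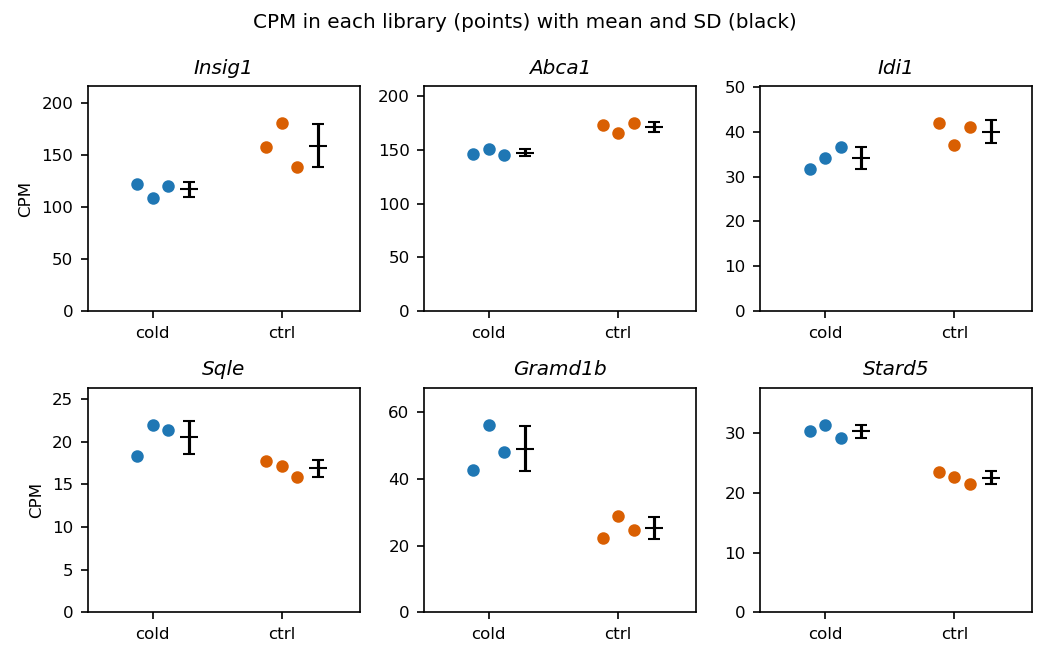
CPM of 4 members (Insig1, Abca1, Idi1, Sqle) and 2 other sterol transfer genes (Gramd1b, Stard5) in each library as points, cold left of ctrl, with mean and SD in black and axes from 0. The 4 members are those with an unadjusted p under 0.05 by edgeR. Gramd1b and Stard5 are the 2 genes called in their list. In these 6 genes, picked by their values, the groups do not overlap, as in 23.8% of all genes tested. Gramd1b shows the widest gap, with means of 49.0 CPM in the cold and 25.4 CPM in ctrl.

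Transcript forms gave no further call. The 29 genes have 174 annotated transcripts, from 2 to 15 each, of which 69 were tested. None of the 69, and 0 of all 42984 transcripts tested (0.0%), passed by edgeR, with 6 of the 69 and 8.15% of all at an unadjusted p under 0.05. Transcripts are less well measured than genes, since Salmon shares reads among them. A single coding form carried nearly all of the level in Cyp51, Nsdhl, Hsd17b7, Abca1 and Idi1. Group means of its share were 98.7 to 100% in the cold and 99.2 to 100% in ctrl. Single libraries went down to 96.4% (Hsd17b7 in cold 16) and 97.5% (Cyp51 in ctrl 6). Shares of a gene's TPM were compared for 50 forms of the 29 genes, by values and with no test. In 6 of the 50 the groups did not overlap, against 9.4% of forms of all genes tested. They were Mvk-206, Mvk-205, Ggps1-201, Fdft1-203, Ebp-201 and Ebp-202. Of Ebp, the sterol isomerase, singled out after its values were seen, the coding form Ebp-201 made up 62.7, 55.4 and 53.2% of the gene's TPM in the cold, against 76.6, 71.8 and 68.8% in ctrl, without overlap. The retained intron form Ebp-202 had 15.8, 15.5 and 14.1% in the cold, against 9.64, 12.4 and 9.79% in ctrl. The larger retained intron form Ebp-204 had 21.5, 20.5 and 32.7% in the cold, against 11.5, 15.8 and 21.4% in ctrl, with overlap. Ggps1-201, a coding form, had 51.4, 56.1 and 49.0% in the cold, against 46.0, 44.9 and 42.4% in ctrl. As a transcript, Ebp-202 stood at 0.74 (SE 0.26, adjusted p = 0.524 by edgeR), and Ebp-201 at -0.11. Npc1 was split between its coding form, 43.2 ± 8.91% in the cold and 47.8 ± 5.34% in ctrl, and the retained intron form Npc1-206, 55.9 ± 8.69% in the cold and 49.7 ± 6.26% in ctrl (SD, n = 3 each).

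Genes around the pathway were read from 4 further lists. Of 20 genes of sterol uptake, transfer and storage, 2 rose and 0 fell, against 2.32% of all genes higher and 0.566% lower. Values were above 0 in 10 genes and below in 10, with a median of -0.02. An unadjusted p under 0.05 was reached by 9 of the 20, against 17.6% of all genes, and 9 did not overlap between groups (6 higher and 3 lower), against 23.8%. The list was chosen with earlier results of these data known, so these shares are no test of the list. The summed level of the 20 genes was 6232 to 6383 CPM in the cold and 7339 to 7828 CPM in ctrl, lower in the cold without overlap. A large part of that gap was caveolin 1 (Cav1), with means of 2248 CPM in the cold and 2868 CPM in ctrl. Gramd1b, whose product moves plasma membrane cholesterol to the endoplasmic reticulum (chromosome 9, 40293233 to 40531383), had 42.8, 56.2 and 48.1 CPM in the cold, against 22.4, 28.96 and 24.7 CPM in ctrl. The gap was clear of the spread in both groups, at 0.95 on the log2 scale by edgeR (SE 0.13, adjusted p = 0.0226). The threshold was missed without ctrl 6 (adjusted p = 0.0876), ctrl 10 (0.105), cold 12 (0.121) or cold 16 (0.0558). Stard5, a soluble sterol-binding protein gene (chromosome 7, 83631959 to 83653127), had 30.5, 31.4 and 29.2 CPM in the cold, against 23.6, 22.6 and 21.6 CPM in ctrl. Its log2 fold change was 0.43 (SE 0.08, adjusted p = 0.0352). Its adjusted p was 0.0513 with the length offset, 0.115 without ctrl 6, 0.129 without ctrl 10, 0.137 without cold 12 and 0.0765 without cold 16, all above 0.05. Stard5 shares 22.0% of its exon bases with Il16 on the opposite strand, which stood at 18.3 to 19.3 CPM in the cold and 20.5 to 24.3 CPM in ctrl. The duct epithelial and motile cilium markers that passed, 5 of 11 and 3 of 10 tested, were also higher in the cold, and their part in both calls was not tested.

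Other genes of that list did not pass. Caveolin 1, Cav1, which shapes the cholesterol-rich caveolae of fat cell membranes, averaged 2248 ± 217 CPM in the cold and 2868 ± 214 CPM in ctrl (SD, n = 3 each). Every cold library was lower, with a log2 fold change of -0.35 (adjusted p = 0.128 by edgeR and 0.00879 by DESeq2). All 9 endothelial markers, cells that also hold caveolae, had values below 0 and none passed. They summed to 1387, 1500 and 1637 CPM in the cold, against 1683, 1767 and 1693 CPM in ctrl, and their part in the Cav1 values was not tested. Nceh1, a cholesteryl ester hydrolase, stood at 0.43 (adjusted p = 0.133).

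For the 3 remaining lists, the shares over all genes tested were 2.89% called and 17.6% at an unadjusted p under 0.05 (edgeR). None of the 12 genes of SREBP processing and sterol-regulated degradation passed (edgeR, 0 also at an unadjusted p under 0.05 and median -0.09). Erlin1, an endoplasmic reticulum protein that restrains SREBP, averaged 27.8 ± 1.40 CPM in the cold and 31.6 ± 1.80 CPM in ctrl (SD, n = 3 each). Its log2 fold change was -0.18 and that of Paqr3, a Golgi anchor of SCAP, was -0.44 (adjusted p = 0.289 and 0.307). The conjugating enzyme Ube2g2 stood at 0.11 and the SREBP protease Mbtps1 at -0.13. Of 11 LXR and oxysterol genes 10 were tested and none passed (0 at an unadjusted p under 0.05, median -0.15). Of these 10, 4 had values above 0, the highest at 0.85, and 6 below 0. The 4 with the smallest p were all below 0. The LXR gene Nr1h2 stood at -0.15, the oxysterol enzyme Cyp27a1 at -0.18, Cyp46a1 at -0.36 and the sterol exporter Abcg5 at -0.67. Abcg5 was at under 1 CPM in every library. Of 15 genes of the isoprenoid branches, which use mevalonate products for prenylation, dolichol and coenzyme Q, none passed (1 at an unadjusted p under 0.05, median 0.02). The farnesyltransferase subunit gene Fntb stood at -0.26, the Rab escort gene Chm at -0.15, and Nus1 and Rabggtb each at 0.12.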

How the data were processed

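Salmon tables of 6 libraries were used, 3 cold and 3 ctrl. The submitters' processing notes name GRCm38 and the tools Salmon, cutadapt and bcl2fastq, with versions not stated there. Per the labels' protocols, libraries were strand-specific and paired-end, with 50 nt reads. The authors deposited estimated counts and TPM for 140658 transcripts per library, with effective lengths. Identifiers were joined to GENCODE M21 (140137 matched), and the 521 others, with 0.124 to 0.394% of counts, were left out. Estimated counts were summed per gene and rounded. The deposited TPM values were summed per gene for levels only and not tested.

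Tests used R 4.3.3 with edgeR 4.0.16: filterByExpr (minimum count 10, minimum total 15), TMM, robust glmQLFit and glmQLFTest, cold against ctrl, two-sided, with Benjamini-Hochberg adjustment over all features and a threshold of 0.05. Standard errors came from the F statistic, and intervals are at 95%. DESeq2 1.42.0 was an alternative, as were RLE size factors, no filter, a transcript length offset and leaving out libraries. The scripts were tested on simulated data. Any 2 libraries of a group differed by more than sampling noise (chi-square over degrees of freedom, lowest value 11.1).

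Members and lists were chosen with earlier results of these data known. Named were all 29 members, the 4 genes with the smallest p in each of 4 pathway lists, and transcripts with at least 10% of a gene's TPM, at most 3 per gene. Promoters are shown for Hmgcs1, by its motif, and for Insig1 and Abca1, chosen after their values were seen. Of 7 marker lists, adipocyte, endothelial, macrophage, duct epithelial, motile cilium, stromal progenitor and steroidogenic cell, stromal progenitor and steroidogenic cell are given in the closing observations.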

Additional observations from a re-analysis of the deposited data

How the results depend on the processing

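No paired analysis was possible because the mouse numbers of cold and ctrl are not shared. The count of all genes called, 516, was 924 without the low-count filter, 1430 by DESeq2 and 1230 with ctrl 5 and cold 7 both left out, and 0 to 1090 with 1 library left out (edgeR called 0 without ctrl 6, ctrl 10 or cold 12, where 3071, 2835 and 2546 had an unadjusted p under 0.05). Of the 29 members, 1 was called without the filter and 2 by DESeq2, and 0 under each other alternative run. Of transcripts, 8 were called without the filter, none of a member. In 18 of 29 members the sign held under every alternative run. With ctrl 5 and cold 7 left out, Hmgcs1 was at -0.13, Ggps1 at 0.036, Ebp at -0.14, Srebf2 at 3.99e-05 and Insig2 at 0.0077. With RLE factors Insig2 was at 0.0057 and Npc2 at 0.0023, by DESeq2 they were at 0.0039 and 0.000189, and with the length offset Scap was at 0.028 and Insig2 at 0.027. With 1 library left out, ranges crossed 0 for Hmgcs1 (-0.076 to 0.215), Fdps (-0.100 to 0.059), Ggps1 (-0.072 to 0.047), Cyp51 (-0.187 to 0.031), Nsdhl (-0.168 to 0.177), Ebp (-0.074 to 0.107), Srebf2 (-0.147 to 0.019), Insig2 (-0.043 to 0.081), Npc2 (-0.084 to 0.127) and Abcg1 (-0.032 to 0.512). The cause was not tested. Depth may limit the members with the fewest counts, Tm7sf2, Hsd17b7 and Mvd (SE 0.13, 0.12 and 0.14), and transcripts split by Salmon. Standard errors were larger in Fdft1, Abcg1 and Nsdhl, at 0.34, 0.27 and 0.18, and the part of depth was not tested.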

Other observations

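Genes that mark cells which turn cholesterol into steroids were at low to moderate levels in both groups. Star, which moves cholesterol into mitochondria, had 8.71, 4.80 and 4.68 CPM in the cold, against 8.34, 3.98 and 5.19 CPM in ctrl. The side chain cleavage gene Cyp11a1 had 1.36, 0.904 and 0.908 CPM in the cold, against 2.02, 0.670 and 0.667 CPM in ctrl. Both were highest in cold 7 within the cold group and in ctrl 5 within ctrl, and neither passed. Insl3, known from Leydig cells, had 13.4, 9.56 and 8.73 CPM in the cold, against 7.68, 10.2 and 8.21 CPM in ctrl. Lhcgr, the luteinizing hormone receptor gene, was at 0.656 to 1.30 CPM in the cold and 1.197 to 1.34 CPM in ctrl. Of 6 such markers 4 were tested, with a median log2 fold change of -0.03. The 10 stromal progenitor markers, all tested, summed to 4443, 2623 and 2597 CPM in cold 7, cold 12 and cold 16, against 3450, 2589 and 3593 CPM in ctrl 5, ctrl 6 and ctrl 10. By edgeR 0 of these 10 passed, also with no adjustment of p, and their median was 0.07.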
